A study of Homo sapiens with 3 samples.

Results

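The genes described here encode the proteins of the mitochondrial ribosome. They were taken by name, as every gene whose platform symbol is MRPL or MRPS followed by a number and an optional letter, on probe sets that list no gene of another kind. This gave 75 of the 19775 genes of the array, 48 named for the large subunit (MRPL) and 27 for the small subunit (MRPS), measured by 140 of its 54675 probe sets. The rule uses names and no measured value. MRPL53, MRPS24 and 1 further probe set of MRPL51 lie on probe sets that also list a gene of another kind and were left out by the rule, while MRPL51 itself has a probe set of its own.

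The arrays hold RNA of 3 unstressed cultures of HEK-293T, a human embryonic kidney line that carries a temperature-sensitive SV40 T antigen gene. They were run to learn which genes are expressed in these cells before genes were chosen for knockdown. All 3 cultures were grown in DMEM with serum and left untreated, and each was hybridised to its own Affymetrix U133 Plus 2.0 array. The high-seeded 48 h culture was seeded at 750K cells and harvested at 48 h (K standing for 1000 cells, RNA integrity number 10.0), the low-seeded 48 h culture at 375K cells and harvested at 48 h (9.6), and the 24 h culture at 1000K cells and harvested at 24 h (9.5). Harvest time, seeding density and any batch cannot be told apart in this design. The error behind the p-values comes from the difference between the 48 h cultures, pooled in part over the probe sets. Those cultures also differ in seeding, and the lone 24 h array adds nothing to the estimate of that error. With only 3 arrays, each value is known roughly. Arrays of whole cultures cannot tell fewer cells of a type from less RNA per cell. The signal is an intensity in arbitrary units, and because each probe set binds its transcript with its own strength, an order of genes by signal is not an order by amount of RNA.

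Mitochondria keep a ribosome of their own, which resembles that of bacteria and makes the few proteins encoded in mitochondrial DNA, all of them membrane subunits of the respiratory chain and the ATP synthase. Its ribosomal RNAs come from the mitochondrial genome, but every one of its proteins is encoded in the nucleus, made in the cytosol and imported. Many of these proteins descend from bacterial ribosomal proteins and others have no bacterial counterpart. The transcription factors NRF1, the ETS family (with GABP, also called NRF2) and YY1 are known to act at many nuclear genes for mitochondrial proteins.

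The promoters of the members were read for sequence they share, which the choice by name did not use. RefSeq promoters (GRCh38.p14) from 250 bases before to 50 bases after the start were found for 67 of the 75 genes. Position 1 is the first transcribed base and -1 the base before it. Both strands were searched for the letters GCGCATGCG for NRF1, CCGGAAG for the ETS family, AAGATGGC for YY1, CCAAT for the box of that name, TATAAA for the TATA box and GAANNTTC for inverted heat shock units. Matches of different motifs may overlap, and each was counted. A match is a description of letters and not a bound site. The sequences below are printed 5′ to 3′ on the strand of the gene, with matches to the NRF1, ETS or YY1 letters in capitals on whichever strand they read, so that CTTCCGG marks the ETS letters and GCCATCTT the YY1 letters when read from the other strand. The shorter windows run from 80 bases before the start to 30 bases after it.

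Of the 67 members, 8 held both an ETS and a YY1 match, and MRPL20, MRPS10 and MRPS18A are shown because both lie close to the start. The windows are MRPL20 at chr1:1407264-1407373 (minus strand), MRPS10 at chr6:42217832-42217941 (minus strand) and MRPS18A at chr6:43687762-43687871 (minus strand). In MRPL20 the ETS matches begin at positions -44 and -21 and the YY1 match at 16. In MRPS10 they begin at -22 and 10, and in MRPS18A at -31 and 10.
MRPL20: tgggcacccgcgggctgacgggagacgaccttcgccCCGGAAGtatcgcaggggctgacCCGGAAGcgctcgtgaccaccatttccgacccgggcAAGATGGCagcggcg
MRPS10: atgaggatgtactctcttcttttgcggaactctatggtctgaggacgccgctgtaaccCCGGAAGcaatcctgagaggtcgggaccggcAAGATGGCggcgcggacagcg
MRPS18A: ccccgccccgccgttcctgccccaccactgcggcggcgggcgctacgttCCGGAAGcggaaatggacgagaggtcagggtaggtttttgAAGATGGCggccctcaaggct

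Members with repeated ETS matches numbered 7, and MRPL27, MRPS22 and MRPS34 are shown for them. The windows are MRPL27 at chr17:50373155-50373264 (minus strand), MRPS22 at chr3:139343914-139344023 (plus strand) and MRPS34 at chr16:1773105-1773214 (minus strand). In MRPS34 the 3 matches, all on the other strand, begin at positions -71, -29 and -19. In MRPS22 a match at -87 lies just outside the printed window.
MRPL27: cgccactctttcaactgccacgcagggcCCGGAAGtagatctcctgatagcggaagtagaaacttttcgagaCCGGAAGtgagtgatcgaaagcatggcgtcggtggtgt
MRPS22: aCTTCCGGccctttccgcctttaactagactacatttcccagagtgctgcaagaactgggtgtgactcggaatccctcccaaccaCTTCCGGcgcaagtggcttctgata
MRPS34: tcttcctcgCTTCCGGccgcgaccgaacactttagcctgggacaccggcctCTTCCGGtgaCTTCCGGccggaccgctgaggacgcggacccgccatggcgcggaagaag

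MRPL45, MRPS7 and MRPS27 are shown for a YY1 match after the start without an ETS match in the promoter. The windows are MRPL45 at chr17:38297088-38297197 (plus strand), MRPS7 at chr17:75261799-75261908 (plus strand) and MRPS27 at chr5:72320211-72320320 (minus strand). The YY1 letters hold an ATG, so a match that reads along the gene after the start can coincide with a start codon. Whether it does was not examined.
MRPL45: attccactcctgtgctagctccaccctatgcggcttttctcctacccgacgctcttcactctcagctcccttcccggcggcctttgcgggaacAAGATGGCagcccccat
MRPS7: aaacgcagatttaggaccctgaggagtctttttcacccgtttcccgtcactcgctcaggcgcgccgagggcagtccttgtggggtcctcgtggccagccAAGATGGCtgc
MRPS27: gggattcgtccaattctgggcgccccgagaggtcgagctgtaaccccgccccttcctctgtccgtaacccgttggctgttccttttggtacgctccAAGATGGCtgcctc

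A member promoter can also be that of a neighbour that starts on the opposite strand. MRPL46 and MRPS11 are both members and start 320 bases apart on chromosome 15, and MRPS12 starts 181 bases from SARS2, the mitochondrial seryl-tRNA synthetase. For these genes the windows run from 250 bases before the start to 30 bases after it, MRPL46 at chr15:88467359-88467638 (minus strand), MRPS11 at chr15:88467458-88467737 (plus strand) and MRPS12 at chr19:38930694-38930973 (plus strand). Those of MRPL46 and MRPS11 overlap and are each printed on their own gene's strand.
MRPL46: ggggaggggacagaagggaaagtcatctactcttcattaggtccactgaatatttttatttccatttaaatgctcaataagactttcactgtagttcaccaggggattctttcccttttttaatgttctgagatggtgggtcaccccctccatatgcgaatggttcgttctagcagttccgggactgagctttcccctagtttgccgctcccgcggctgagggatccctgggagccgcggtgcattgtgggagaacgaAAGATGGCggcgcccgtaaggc
MRPS11: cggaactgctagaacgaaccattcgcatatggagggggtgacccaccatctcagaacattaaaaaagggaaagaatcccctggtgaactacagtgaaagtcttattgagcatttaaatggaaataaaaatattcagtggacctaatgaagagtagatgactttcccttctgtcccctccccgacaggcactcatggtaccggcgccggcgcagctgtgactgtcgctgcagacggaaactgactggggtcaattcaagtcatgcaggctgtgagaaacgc
MRPS12: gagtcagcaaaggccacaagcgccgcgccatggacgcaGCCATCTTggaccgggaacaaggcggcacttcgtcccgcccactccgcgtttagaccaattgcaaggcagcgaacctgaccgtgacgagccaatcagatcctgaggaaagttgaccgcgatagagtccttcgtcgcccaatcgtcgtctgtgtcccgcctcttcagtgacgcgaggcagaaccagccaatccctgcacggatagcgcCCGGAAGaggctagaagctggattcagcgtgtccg

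The ETS letters were found in 28 of the 67 member promoters (41.8%), against 10.7% of the promoters of all 27305 genes in the table and 14.2% of those of its 15843 protein-coding genes. The YY1 letters were found in 19 (28.4%), against 3.03% of all and 3.91% of protein-coding genes. At least 1 of the NRF1, ETS and YY1 motifs was present in 40 members (59.7%), against 14.6% of all and 19.2% of protein-coding genes. The NRF1 letters were found in 3 members (4.48%), MRPL17, MRPL22 and MRPS18C, against 2.1% of all and 2.76% of protein-coding genes. Neither these letters nor the other motifs were raised in members to the degree of the ETS and YY1 letters. A CCAAT box was found in 20 members (29.9%) against 35.7% of all and 36.4% of protein-coding genes. A TATA box was found in 2 (2.99%) against 12% and 9.63%. Inverted heat shock units, the letters to which heat shock factors bind, were found in 6 members (8.96%) against 6.87% and 5.56%. The median GC content was 60.3% in members, 58.3% in all promoters and 62.7% in those of protein-coding genes.

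**Figure D1:**
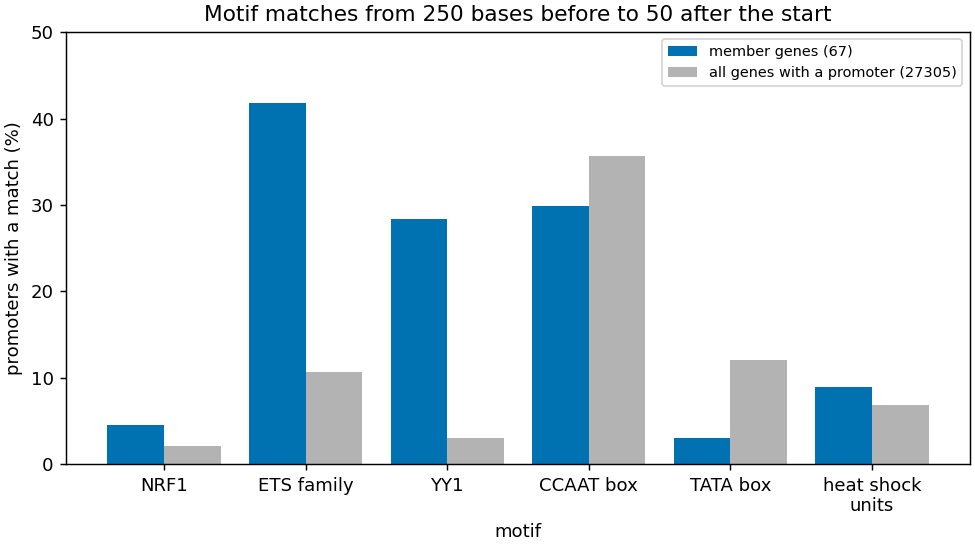
Share of promoters (vertical axis, percent) that hold at least 1 match to each of 6 motifs (horizontal axis), for the 67 member genes in blue and all 27305 genes with a promoter in grey. The ETS and YY1 bars of the members reach 41.8% and 28.4%, against 10.7% and 3.03% for all genes, while the TATA bar is lower in members.

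The matches were also placed by their distance from the start. Of the 20 YY1 matches in members, 14 (70%) read along the gene and began after the start, against 43.8% of all YY1 matches in the table. The median first base of the 20 was 10, against 4 for all YY1 matches. Of the 37 ETS matches in members, 27 (73%) began no further than 60 bases before the start, against 56.9% of all ETS matches. The median first base of the 37 was -22, against -47 for all ETS matches. Start sites on opposite strands within 1000 bases of another protein-coding gene were found for 20 of the 67 members (29.9%), against 12.3% of protein-coding genes. Every listed start of a gene counted here, unlike in the motif search. The 19 partners with a probe set of their own, 2 of which are the members MRPL46 and MRPS11, were above background, against 51.6% of all genes. MRPL49 starts 49 bases from FAU, whose product is fused to a cytosolic ribosomal protein, and MRPL32 202 bases from PSMA2, a proteasome subunit. MRPS27 shares its start region with PTCD2, a mitochondrial RNA-binding protein.

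Every member gene was expressed in the unstressed cells by the measure used here. The threshold on each array was the 95th percentile of the signals of 306 reference probe sets, for genes whose expression is limited to tissues other than kidney, and it lay at 121.5 in the high-seeded 48 h, 97.4 in the low-seeded 48 h and 84.1 in the 24 h culture. A probe set counted as above background when it passed on all 3 arrays, and a gene when any of its probe sets did. By this rule 75 of 75 members were above background, against 51.6% of all genes, and 124 of 140 member probe sets, against 38.4% of all probe sets. The trimmed mean signal was 500.1 on each array, and the medians were 71.0 to 80.3. Of the markers of the labelled cells, EYA1 and SALL1 were above background among 4 measured embryonic kidney genes, as were the neuronal filaments NEFL, NEFM and INA (3 of 3) and, of 3 fibroblast markers, the collagen COL1A1. None of the measured markers of mature tubule (4), blood (2) or endothelium (2) was.

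The members lay far above the threshold. Each gene was represented by its brightest probe set, the one with the highest mean log2 signal. For 74 of 75 genes this signal was over 10 times the threshold on every array, as for 21.9% of all genes. The lowest array reached 7.41 times its threshold for MRPL2, a protein of the catalytic core, and 192.6 times for MRPL3, and the median over the 75 genes was 40.3. MRPL2 gave signals of 900.3 and 777.7 in the high-seeded and low-seeded 48 h cultures and 903.9 in the 24 h culture. Every later pair of 48 h values is likewise that of the high-seeded and then the low-seeded culture. MRPL3 gave 23406 and 22654 in the 48 h cultures and 22325 in the 24 h culture.

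**Figure D2:**
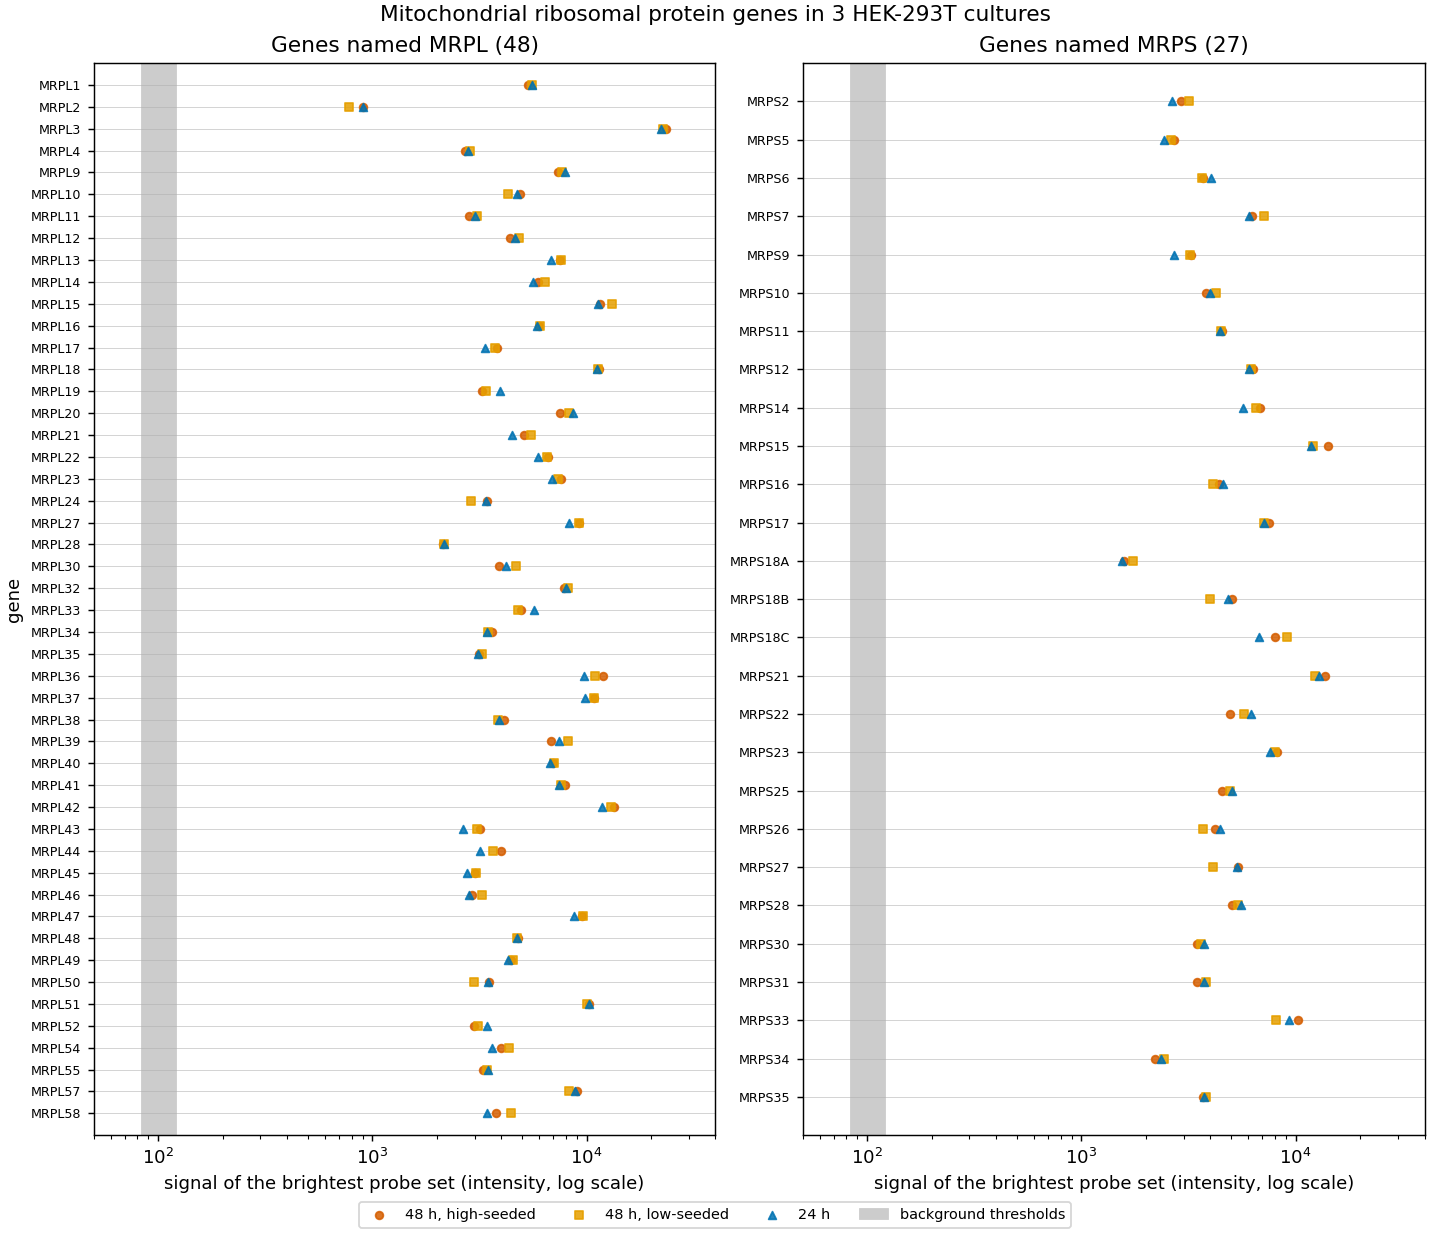
Signal of the brightest probe set (horizontal axis, intensity on a log scale) of each of the 48 MRPL genes (left) and 27 MRPS genes (right) in the high-seeded 48 h, low-seeded 48 h and 24 h cultures, with the range of the 3 background thresholds in grey. Every point lies to the right of the grey band, the nearest being those of MRPL2.

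Many of these genes were measured more than once, and the probe sets of a gene did not always tell the same. A single probe set was present for 38 genes and 2 to 5 for the other 37. All probe sets were above background for 62 genes and part of them for 13, which makes 16 probe sets that were not. Of these, 11 were above the threshold on 0 arrays, 2 on 1 array and 3 on 2 arrays. By the array maker's suffix, probe sets without a suffix letter were above background in 46 of 55 cases, those that may hit several transcripts of a gene or family (_s_at) in 66 of 71 and those with probes shared with other sequences (_x_at) in 12 of 14.

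The probe sets that were not above background all belonged to genes with another that was. MRPL20, a protein of bacterial origin, gave 7483 and 8272 in the 48 h cultures and 8645 in the 24 h culture with its brightest probe set. A second probe set of MRPL20 gave 43.5 and 10.2 in the 48 h cultures and 57.9 in the 24 h culture, and the other gave 23.3 and 8.34 against 37.5. The call for this gene therefore rests on 1 of its 3 probe sets. MRPL12, a stalk protein, had a second probe set at 44.0 and 55.6 in the 48 h cultures and 120.2 in the 24 h culture, where only the last exceeded its threshold. For MRPL41 the 2 probe sets not above background gave 127.7 and 152.9 in the 48 h cultures against 58.0 in the 24 h culture, and 18.9 and 12.4 against 128.0. These 2 probe sets of the same gene were ordered in opposite ways by the 3 arrays. Both carry the suffix for shared probes.

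The remaining genes of this kind had a dim probe set beside a bright one. MRPL23 gave 94.2 and 46.9 in the 48 h cultures and 60.8 in the 24 h culture with its dim probe set, MRPL38 gave 67.7 and 14.4 against 34.6, and MRPL39 gave 25.2 and 39.0 against 30.1. MRPL55 gave 99.05 and 27.9 against 34.2. Of the small-subunit genes, MRPS5 had 2 such probe sets, at 13.5 and 73.7 in the 48 h cultures against 47.5 in the 24 h culture and at 13.9 and 25.2 against 36.6. The dim probe set of MRPS12 gave 158.1 and 68.7 against 98.2, so that the low-seeded 48 h array alone fell below its threshold. MRPS18C gave 43.0 and 49.3 against 56.3, MRPS26 gave 9.0 and 42.0 against 6.43, and MRPS27 gave 78.7 and 86.8 against 46.6. The last gene of this group was MRPS31.

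**Figure D3:**
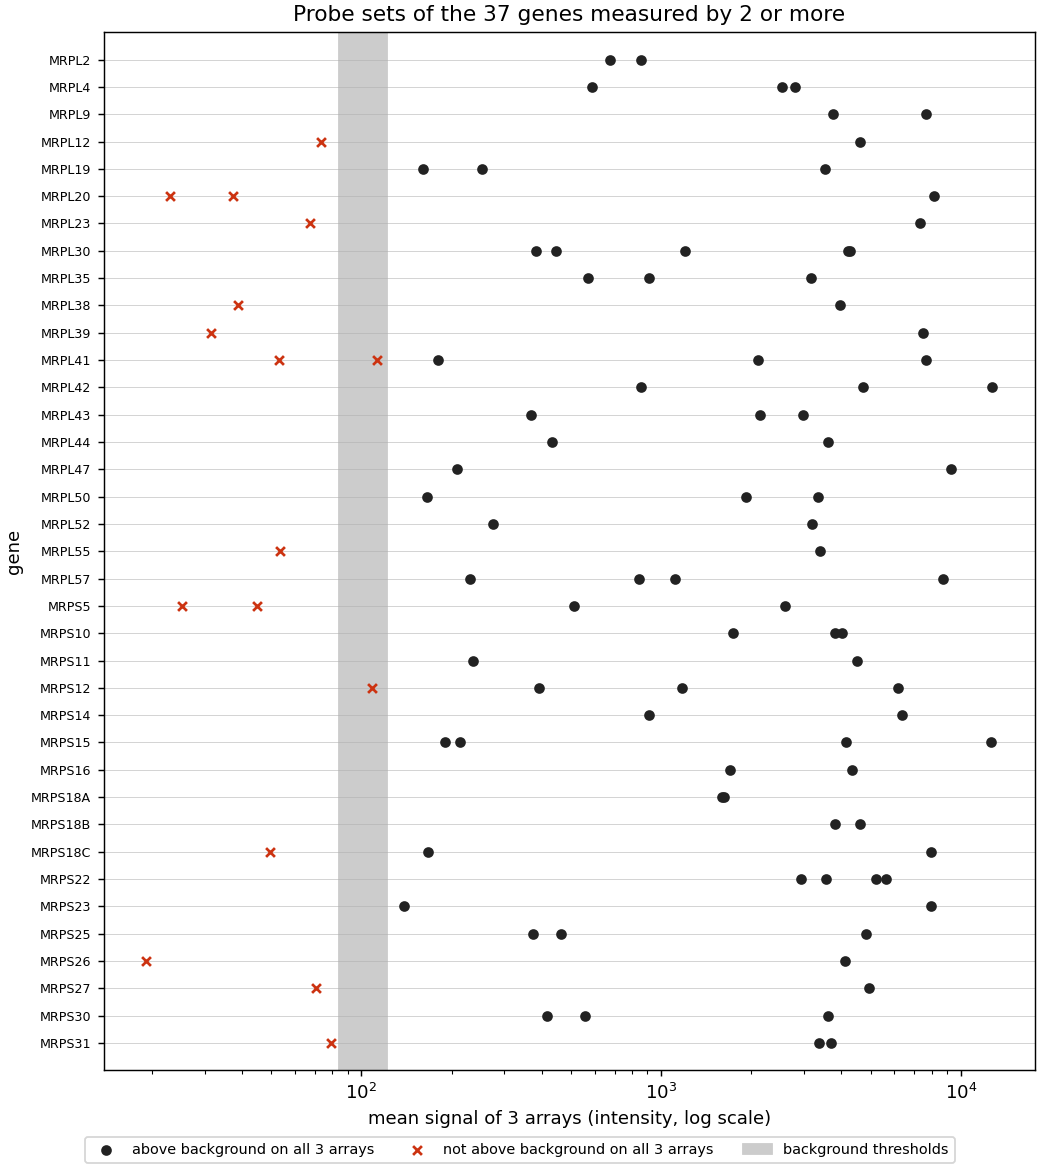
Mean signal over the 3 arrays (horizontal axis, intensity on a log scale) of every probe set of the 37 member genes measured by 2 or more, black where it was above background on all 3 arrays and a red cross where it was not. The grey band is the range of the background thresholds. All 16 crosses stand in rows that also hold at least 1 black point.

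The 3 cultures gave much the same signal for most members. The SD of log2(signal + 19.8) over the 3 arrays had a median of 0.08 over the 75 brightest probe sets, where 19.8 is the median signal of the background probe sets, and it was below 0.1 for 47 genes (62.7%), against 34.4% of all genes tested. Bright probe sets vary less, and over the 5389 genes at least as bright as MRPL2 the median SD was 0.10. MRPL28 varied least, with 2142 and 2158 in the 48 h cultures and 2162 in the 24 h culture, followed by MRPL48, a protein of the central protuberance, with 4795 and 4732 against 4743, and MRPS11, with 4545 and 4469.8 against 4457. The SDs of these 3 genes were 0.01, 0.01 and 0.02 on the log2 scale. The widest spread was that of MRPS27, an RNA-binding protein of the pentatricopeptide repeat family, which gave 5382 and 4103 in the 48 h cultures and 5347 in the 24 h culture (SD 0.22). Here the low-seeded 48 h culture stood below both others. MRPS18C and MRPL58, with SDs of 0.22 and 0.18, were the next most variable.

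The 48 h cultures were compared with the 24 h culture by limma on log2(signal + 19.8) over the 23013 probe sets that passed a filter on the mean log2 signal (a signal of 101.0, the mean of the 3 thresholds), with p-values adjusted over all of them. This included 126 of the 140 member probe sets and the brightest of each of the 75 genes. None of the 126 was called at an adjusted p under 0.05, against 55 of all probe sets (0.239%). The smallest adjusted p of a member in limma was 0.238, and 14 members (11.1%) had an unadjusted p under 0.05, 9 higher and 5 lower at 48 h, against 9.19% of all probe sets. The median difference of the members, 48 h minus 24 h, was 0.01 on the log2 scale over 126 probe sets, of which 68 were higher and 58 lower, but with scaling to equal medians it was -0.04, with 49 higher and 77 lower. Scaling to equal medians moved the median of all probe sets tested to -0.06, against -0.005 in the scaling as deposited, so that the members stayed close to the median of the array under both. The lone 24 h array is assumed in these tests to vary as the 48 h pair does.

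A change by a factor of 2 between the harvest times lay outside the 95% interval of the brightest probe set of each of the 75 genes, but inside that of some dimmer ones, such as the second of MRPL44 (-1.34 to -0.29), 1 of MRPL19 (-1.66 to 0.08) and 1 of MRPL41 (0.01 to 2.06). The brightest probe sets differed by -0.25 to 0.34 on the log2 scale, with 38 genes within 0.1 and 64 within 0.2 of no difference. The 95% interval reached a median of 0.22 to each side of the difference, from 0.20 to 0.37 over the genes. The whole interval lay within 0.5 of no difference for 74 genes. All these intervals come from the fit with the mean-variance trend, in which the error of a probe set leans on others of like signal. How wide the intervals are without that trend is not reported here. A total of 46 genes were higher and the others lower at 48 h, with a median of 0.03, which became 29 genes and -0.03 with scaling to equal medians. The 24 h signal lay below both 48 h signals for 53 of 126 member probe sets (35.4% of all probe sets tested) and above both for 40 (35% of all). For the brightest probe sets these numbers were 37 and 17 of 75, with 21 in between, against 35.9%, 35.2% and 28.9% of all genes tested. With scaling to equal medians the 24 h signal lay below both for 26 member probe sets.

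**Figure D4:**
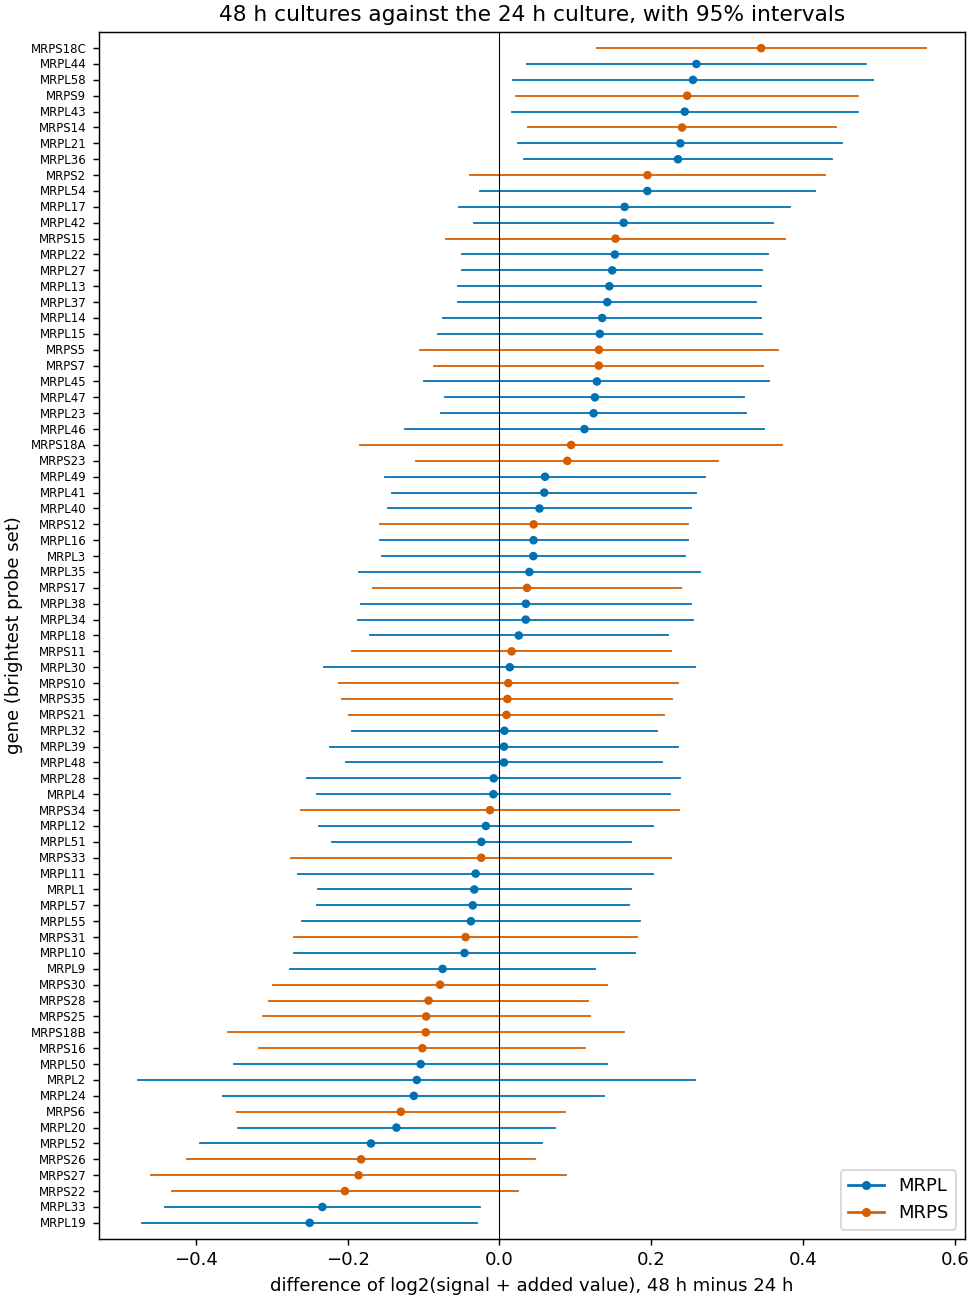
Difference of log2(signal + 19.8) between the 48 h cultures and the 24 h culture (horizontal axis) for the brightest probe set of each of the 75 genes, ordered by size, with the 95% interval from limma as a line, MRPL in blue and MRPS in orange. The points run from -0.25 for MRPL19 to 0.34 for MRPS18C and most intervals span 0.

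Among the brightest probe sets the largest difference belonged to MRPS18C, 1 of 3 paralogs of the bacterial protein S18. Its brightest probe set gave 7983 and 9112 in the 48 h cultures and 6713 in the 24 h culture. Both 48 h arrays were above the 24 h array, by 0.34 ± 0.10 (SE) on the log2 scale, with an adjusted p of 0.238 in limma. A second probe set of this gene, much dimmer, gave 167.5 and 164.8 in the 48 h cultures and 170.2 in the 24 h culture, without a visible difference. MRPS18B, a second paralog found in the small subunit, gave 5065 and 3994 in the 48 h cultures and 4812 in the 24 h culture. Its 24 h value lay between those of the 48 h cultures, which stood 0.34 apart. Its other probe set gave 3842 and 3908 against 3691, with the 24 h culture below both 48 h cultures and a difference of 0.07. MRPS18A, the paralog that sits in the large subunit, gave 1575 and 1747 against 1553, and its other probe set 1475 and 1593 against 1707. The first placed the 24 h culture below both 48 h cultures and the second above both, with differences of 0.09 and -0.15 on the log2 scale.

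MRPL44, a subunit with an RNase III fold that carries mutations in mitochondrial disease, had the next largest difference among the brightest probe sets, and its 2 probe sets pointed opposite ways. Its brightest probe set gave 3967 and 3676 in the 48 h cultures and 3187 in the 24 h culture, which was 0.26 ± 0.11 (SE) higher at 48 h (limma, adjusted p = 0.452). Its second probe set gave 337.6 and 347.5 in the 48 h cultures and 617.5 in the 24 h culture, which was a difference of -0.81 ± 0.25 (limma, adjusted p = 0.248). In both, the 48 h arrays stood together and apart from the 24 h array, but on opposite sides of it. The second carries the suffix for probes shared with other sequences. Neither passed the test over the whole array.

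The other large differences were of similar size. MRPL58, a peptidyl-tRNA hydrolase built into the large subunit, gave 3796 and 4427 in the 48 h cultures and 3432 in the 24 h culture, a difference of 0.25 (limma, adjusted p = 0.502) that was 0.14 for the high-seeded and 0.37 for the low-seeded culture alone. MRPS9, a small-subunit protein of bacterial origin, gave 3236 and 3201 against 2709, a difference of 0.25 (limma, adjusted p = 0.490). For both genes the 24 h array was the lowest. On the other side, MRPL19, a large-subunit protein of bacterial origin, gave 3237 and 3378 in the 48 h cultures and 3935 in the 24 h culture, a difference of -0.25 (limma, adjusted p = 0.466). Its 2 dimmer probe sets also placed the 24 h culture above both 48 h cultures, with 257.6 and 228.5 against 270.1, and 130.7 and 119.9 against 230.9. MRPL33, another protein of bacterial origin, gave 4927 and 4776 against 5705, a difference of -0.23 (limma, adjusted p = 0.473). MRPS22 gave 4952 and 5769 against 6157, a difference of -0.20 (limma, adjusted p = 0.603) that was -0.31 for the high-seeded and -0.09 for the low-seeded culture alone. The difference of -0.19 for MRPS27 (limma, adjusted p = 0.728) came from the low-seeded culture, being -0.38 for that culture alone and 0.01 for the high-seeded one.

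Probe sets of the same gene differed in which way they pointed. In the genes with 2 or more probe sets tested, 16 of the 29 brightest were higher at 48 h (55.2%), with a median of 0.01, and 22 of the 51 others (43.1%), with a median of -0.02. Among all genes with 2 or more tested these shares were 50.8% and 49.2%. Brightness moved with this. Below a mean signal of 1000, 12 of 32 member probe sets were higher at 48 h (37.5%), against 46.3% of all such probe sets, and from 1000 up 56 of 94 (59.6%), against 54.4%. The part of brightness in the direction of the differences was not tested.

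**Figure D5:**
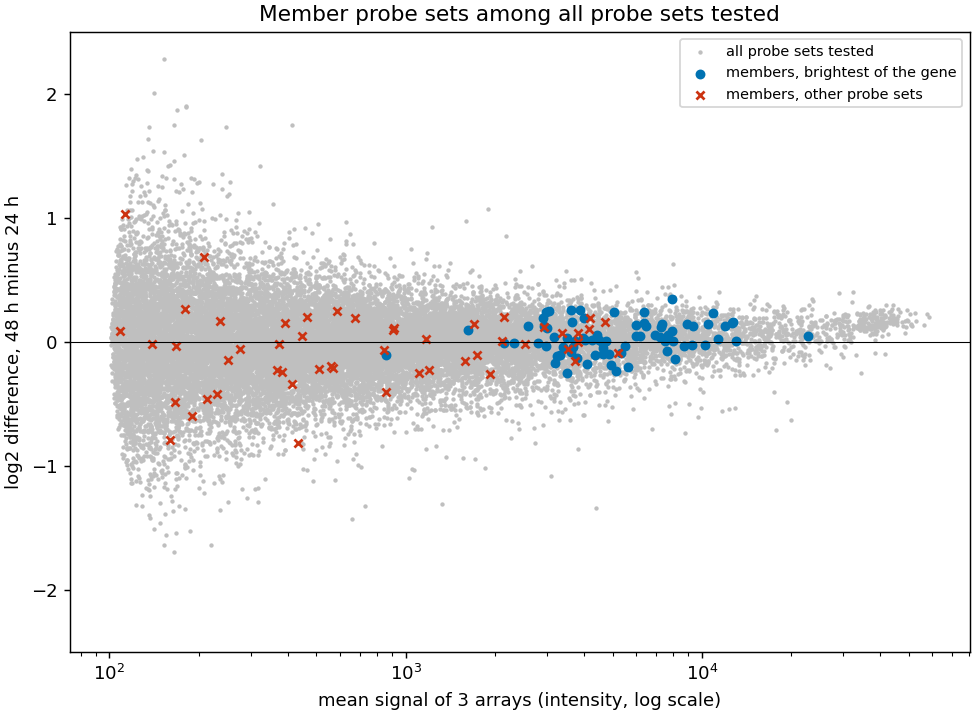
Difference of log2(signal + 19.8), 48 h minus 24 h (vertical axis), against the mean signal of the 3 arrays (horizontal axis, intensity on a log scale) for the 23013 probe sets tested in grey, the brightest member probe sets in blue and the other member probe sets as red crosses. The blue points sit at high signals between -0.25 and 0.34 and the widest member differences are red crosses at low signals.

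The 2 cultures harvested at 48 h were also set against each other. The high-seeded minus low-seeded difference had a median of -0.01 on the log2 scale over the 126 member probe sets, and 1 of them was past 1 in size, against 1.95% of all probe sets tested. With scaling to equal medians the median was -0.18, and 0 were past 1 with that scaling and with quantile normalization. That probe set was the dim one of MRPS12 described above, at 158.1 in the high-seeded and 68.7 in the low-seeded culture. The brightest probe sets differed by -0.27 to 0.39, from MRPL30 to MRPS27, with 35 genes higher and 40 lower in the high-seeded culture. MRPL30 gave 3884 in the high-seeded and 4678 in the low-seeded 48 h culture. A single array stands behind each of these values, so no test was made. The same difference is the error of each probe set in the tests between harvest times, before it is pooled in part with the others.

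Ordered by place in the ribosome, the proteins of the stalk, which recruits translation factors to the large subunit, had 48 h signals on both sides of the 24 h signal. MRPL12, the stalk protein that contacts the factors, gave 4372 and 4846 in the 48 h cultures and 4660.4 in the 24 h culture. MRPL10, which anchors MRPL12, gave 4896 and 4309.6 against 4743, and MRPL11, at the stalk base, gave 2813 and 3079.5 against 3008. The 24 h array lay between the 48 h arrays for all 3 genes. It did so for 21 of the 75 members and 28.9% of all genes tested. The median difference of the 3 genes was -0.03.

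The brightest probe sets of the proteins around the catalytic centre, where peptide bonds are made, differed by 0.15 or less on the log2 scale. MRPL16 gave 6013 and 6077 in the 48 h cultures and 5859 in the 24 h culture, and MRPL27, which reaches towards the centre with its tail, gave 9225 and 9242 against 8329. Both had the 24 h array lowest, with differences of 0.04 and 0.15 (limma, adjusted p = 0.940 and 0.686). MRPL4, which also lines the start of the exit tunnel, gave 2705 and 2867 against 2800.5, in between. Of the 5 genes of this group, with MRPL2 and MRPL3, 3 were higher at 48 h by their brightest probe sets. The median of the 5 was 0.04, which became -0.01 with quantile normalization and with scaling to equal medians. The dimmer probe sets differed by 0.25 and -0.02 for MRPL4 and by 0.19 for MRPL2, whose brightest differed by -0.11. Of the 8 probe sets of the group, all tested, 5 were higher and 3 lower at 48 h.

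The exit tunnel, through which the new chain leaves the ribosome, had 5 of 6 genes higher at 48 h under each of the 3 scalings. Of the 75 members 46 were higher as deposited, 42 with quantile normalization and 29 with scaling to equal medians. MRPL22 gave 6645 and 6514 in the 48 h cultures and 5919.7 in the 24 h culture, MRPL17 3833 and 3736 against 3374, and MRPL23 7616 and 7383 against 6879.7. MRPL45, which holds the ribosome to the inner membrane, gave 3003 and 3035 against 2760.1, and MRPL47 gave 9521 and 9622 against 8771. These 5 genes had the 24 h array below both 48 h arrays, and MRPL24 did not, with 3438 and 2881 against 3404. The 24 h array lay below both for 37 of the 75 members and 35.9% of all genes tested. The median difference of the 6 genes was 0.13, and 0.11 and 0.07 with quantile normalization and with scaling to equal medians, and none of them passed the test (limma, adjusted p = 0.685 to 0.847).

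In the central protuberance, where MRPL18 stands with proteins that have no bacterial counterpart, the differences were 0.01 to 0.11 on the log2 scale. MRPL18 gave 11455 and 11317 in the 48 h cultures and 11186 in the 24 h culture, MRPL38 4101 and 3871 against 3889, and MRPL40 6999.9 and 7036 against 6765. MRPL46, at 2906 and 3239 against 2838, differed the most of these, by 0.11. All 5 genes, with MRPL48, were higher at 48 h, with a median of 0.03, but 1 of 5 was with scaling to equal medians. Of the 75 members 46 were higher, and 29 with scaling to equal medians.

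In the small subunit, the proteins along the path of the messenger RNA and at its decoding each had a brightest probe set above background on every array, and 9 of their 12 probe sets were. MRPS12, at the decoding centre, gave 6310.4 and 6159.6 in the 48 h cultures and 6042 in the 24 h culture. MRPS5, at the mRNA entrance, gave 2719 and 2616 against 2434, and MRPS7, at the side where the mRNA leaves, gave 6278 and 7084 against 6089. With MRPS9 and MRPS11 these made 5 genes, whose brightest probe sets all had the 24 h array below both 48 h arrays. That order was found for 37 of the 75 members and 35.9% of all genes tested, by the same measure. A dimmer probe set of MRPS5 had the 24 h array above both, with 452.9 and 514.9 against 564.7. Of the 10 probe sets of these genes that were tested, 9 were higher and 1 lower at 48 h. The median difference of the 5 genes was 0.13, and 5 of 5 were higher at 48 h with quantile normalization and 3 of 5 with scaling to equal medians. None passed the test (limma, adjusted p = 0.490 to 0.983).

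Several members are known from inherited deficiencies of the respiratory chain. Of the 11 on the list used here, 6 were higher at 48 h, with a median of 0.04 that became -0.002 with quantile normalization and -0.008 with scaling to equal medians, and each was above background on every array. MRPS22, with 4 probe sets that all carry the suffix for shared probes, gave mean signals of 2941 to 5626, and its differences ran from -0.20 to 0.12. MRPS16 gave 4380.0 and 4119 in the 48 h cultures and 4558 in the 24 h culture, and MRPS14 gave 6834 and 6563 against 5666. The first had the 24 h array highest and the second had it lowest. MRPS2 gave 2920.1 and 3162 against 2652, MRPS23 8196 and 8016 against 7617, and MRPS34 2212 and 2435 against 2341. MRPS28 gave 5058 and 5397 against 5576.

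A pair of members has been linked to cell death as well as to translation. MRPL41, which has been reported to bind BCL2, gave 7930.4 and 7643 in the 48 h cultures and 7472 in the 24 h culture. MRPS30, also named PDCD9, which sits in the large subunit in spite of its name, gave 3455 and 3618 against 3733. All 3 probe sets of MRPS30 had the 24 h array above both 48 h arrays, as had 35% of all probe sets tested. The 3 differences were -0.08, -0.19 and -0.34, and none passed the test (limma, adjusted p = 0.747 to 0.893).

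The members were also described by subunit and by origin. Of the 48 MRPL genes 31 were higher at 48 h, with a median of 0.04, and of the 27 MRPS genes 15, with a median of 0.01, medians that became -0.02 and -0.04 with scaling to equal medians. Of 46 members with a bacterial homolog 30 were higher, with a median of 0.04, and of 27 without one 15, with a median of 0.01, which became -0.02 and -0.05 with scaling to equal medians. With quantile normalization the median of the 27 without a bacterial homolog was -0.002. MRPL57 and MRPL58 were assigned to neither origin and are in neither count. The median SD over the arrays was 0.08 in each of these 4 groups.

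Genes that work with the mitochondrial ribosome were read in the same way. All 5 subunits under other names were above background, among them DAP3, as were 14 of 14 translation factors and 17 of 18 assembly factors, against 51.6% of all genes. By probe sets these shares were 85.7%, 74.3% and 73.9%, with 88.6% for the members and 38.4% for all. None of their probe sets was called between the harvest times, with medians of 0.05, 0.02 and 0.03 over 12, 26 and 35 probe sets. Nuclear-encoded respiratory chain subunits were above background for 69 of 76 genes, and 70 of their 117 probe sets were higher at 48 h, with a median of 0.05 (0.01 with quantile normalization and 0.00 with scaling to equal medians). Of the mitochondrial transcripts that this ribosome translates, 10 of 10 probe sets of 7 genes were lower at 48 h, with a median of -0.37. Of these 10 probe sets 4 were called by limma, against 0.239% of all probe sets, and 0 probe sets of the whole array were called without the mean-variance trend. For cytosolic ribosomal proteins 56 of 60 genes were above background and 85 of 104 probe sets were higher at 48 h, with a median of 0.13, which became 56 of 104 and 0.01 with quantile normalization and 81 of 104 and 0.08 with scaling to equal medians. No test was made between these lists and the members, and all values come from the same 3 arrays.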

How the data were processed

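Total RNA of 3 cultures of HEK-293T cells was labeled with biotin and hybridised to Affymetrix U133 Plus 2.0 arrays, 1 array per culture. The authors normalised the scans with MAS5, and the submitters' processing notes name GCOS 1.0. The deposited values are signals, an intensity on a linear scale, and the authors' absent/present calls were not used here. No column of values was left without a sample.

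Gene names came from the platform annotation, which lists 1 gene for 41097 probe sets, several for 1801 and no gene for 11777. Background was read from 306 probe sets of 218 genes limited to tissues other than kidney, 127 of them for olfactory and bitter taste receptors, and 4 of the 306 lay above it themselves. Harvest times were compared with limma 3.58.1 in R 4.3.3 (empirical Bayes with a mean-variance trend, 1 residual degree of freedom, two-sided, Benjamini-Hochberg over all probe sets tested, threshold 0.05) on log2(signal + 19.8), a scale that understates changes of low signals. The script was run on simulated data with known differences and the same spread on all 3 arrays. Such data cannot show how the test behaves if the 24 h array varies otherwise. Counts and figures were made with Python 3.11.15. Promoters came from a RefSeq table (GRCh38.p14). The motif search used the first listed start of each gene, and the search for neighbours on the opposite strand used every listed start. A match in sequence was tested for presence only.

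Genes to be named were those only partly above background, those called, the 4 largest differences on each side, the 3 largest and 3 smallest SDs and those with a listed role. The members and gene lists were chosen with earlier results of these data known. Alternatives were other percentiles and references for the threshold, 2 of 3 arrays sufficing, probe sets without the suffixes _s_at and _x_at, quantile normalization, scaling to equal medians, other added values, no filter, no trend, the mean of a gene's probe sets, and each array left out in turn. A comparison of paralog proteins was not run.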

Additional observations from a re-analysis of the deposited data

How the results depend on the processing

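Under the alternatives tried, 0 member probe sets were called between harvest times in all 8 fits by limma, with 14 at an unadjusted p under 0.05 as reported and 2 to 14 in the other fits, while the count over the whole array ranged from 0 (no mean-variance trend) to 97 (no filter), against 55. Without probe sets marked _s_at or _x_at, 39 of the 44 genes left and 46 of 55 probe sets were above background, and 24 of 46 member probe sets and 19 brightest ones were higher at 48 h. With scaling to equal medians, 29 brightest probe sets were higher at 48 h, the 24 h signal lay below both others for 26 member probe sets, and the high-seeded minus low-seeded median was -0.18. The number of member probe sets past 1 between the 48 h cultures was 0 under quantile normalization and under scaling to equal medians. Leaving out each array in turn left 75 genes and 125 probe sets above background, and leaving out each 48 h array gave 69 to 70 member probe sets and 47 to 48 brightest ones higher at 48 h, with medians of 0.02 to 0.03 and 0.03 to 0.04. The difference of MRPS27 was 0.0095 without the low-seeded 48 h culture and -0.38 without the high-seeded one. With scaling to equal medians 49 of 126 member probe sets were higher at 48 h, and the medians of all and of the brightest member probe sets turned to -0.04 and -0.03. Of the other values, 76 of single genes kept their direction. Signals close to the threshold limit what can be said of the 16 member probe sets not above background. No paired analysis was possible because the 24 h group has 1 array and the labels give no replicate numbers.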
